A study of Mus musculus with 21 samples.

Results

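The comparison between 6 h and 3 h after TCP set 3 livers of TCP 6 h against 3 livers of TCP 3 h, which are 6 of the 21 arrays of the series, over the 9376 genes that passed the filter on detection. TCP (TCPOBOP) was given by gavage to female CD-1 mice of 3 months as a single dose of 3 mg/kg in dimethyl sulphoxide and corn oil, and liver RNA was hybridised to Illumina mouse beadchips, with 1 array for each of 3 mice per group. Both groups carried the drug and its vehicle, and no vehicle group and no control entered this comparison, so that a change is relative to livers already exposed to TCP for 3 h. The mice were fed freely, the clock times of dosing and sacrifice are not given in the sources used here, and hours since the dose and hours of the day cannot be told apart. Where it helps to place a gene, the step between the same hours after partial hepatectomy (PH, removal of 70% of the liver, 3 mice each at PH 6 h and PH 3 h) is given beside the TCP step.

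TCP is a potent agonist of the mouse constitutive androstane receptor (CAR, encoded by Nr1i3), a nuclear receptor of hepatocytes. CAR moves to the nucleus on activation and, with its partner RXR, raises the transcription of drug-metabolising enzymes, above all cytochromes P450 of the Cyp2b, Cyp2c and Cyp3a families. In the mouse it is also a direct mitogen of the liver: hepatocytes enter the cell cycle without loss of tissue, so that the hours studied here lie before the wave of DNA synthesis.

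Levels are background-corrected and quantile-normalised log2 signals, and the brightest detected probe stands for a gene. A change is the difference of the group means on that log2 scale, TCP 6 h minus TCP 3 h, and its standard error (SE) comes from 1 limma model of the 18 treated arrays of the series. An offset of 16 added to each signal compresses the changes of dim genes, and levels of different genes are not comparable. A gene is called, and only then said to rise or fall, at a Benjamini-Hochberg adjusted p under 0.05 over all 9376 genes and a change of at least 1.5-fold. Of these genes 57 were called (0.608%), 34 of them higher (0.363%) and 23 lower (0.245%) at TCP 6 h. The values of both groups did not overlap for 1905 genes (20.3%), 1013 of them higher (10.8%) and 892 lower (9.51%), and for all 57 called genes. The unadjusted p was under 0.05 for 651 genes in each direction (6.94% each). The called changes were spread over the whole range of levels, and the median over all genes was 0.0055.

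**Figure D1:**
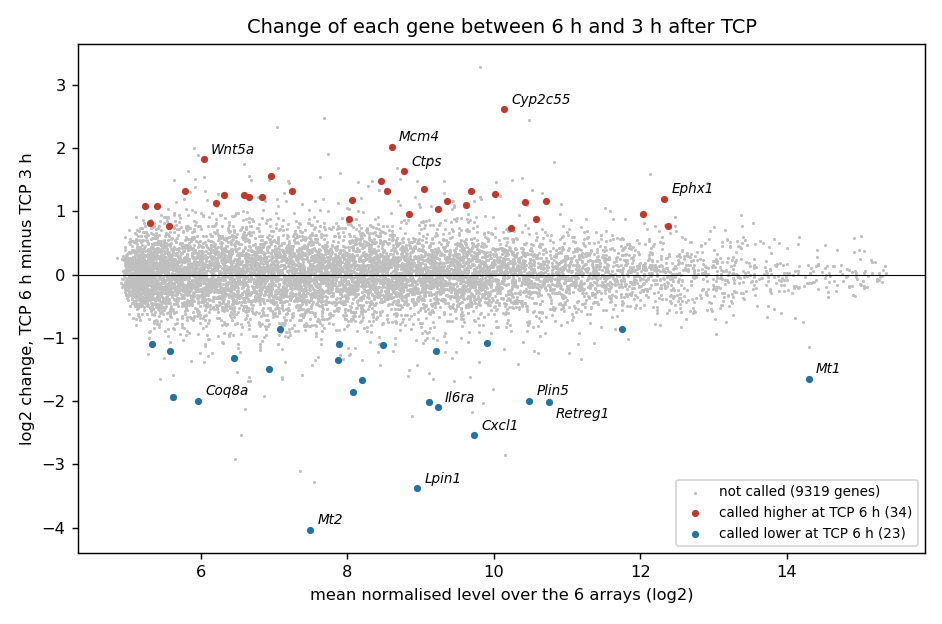
Each point is a gene, with its mean normalised level over the 6 arrays (log2) on the horizontal axis and its log2 change, TCP 6 h minus TCP 3 h, on the vertical axis. The 34 genes called higher (red) and the 23 called lower (blue) lie at dim and bright levels alike, and the falls of Mt2 and Lpin1 reach -4.03 and -3.37.

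The 6 arrays lay on 2 beadchips. All 3 arrays of TCP 6 h and TCP 3 h replicate 1 shared beadchip 1, and TCP 3 h replicates 2 and 3 were on beadchip 2. With the beadchip as a fixed term in the limma model (below, with the beadchip in the model), none of the 57 genes kept its call and 1 other gene, Psmd8 of the proteasome, was called. Among the treated groups only TCP 3 h lay on both beadchips. A change in the fixed-term fit is therefore the TCP 6 h mean minus TCP 3 h replicate 1. The SE was at the median 1.41 times that without the beadchip, and the called changes kept a median share of 0.897. With the beadchip as a random block, at a consensus correlation of 0.0196, 55 genes were called and all 55 were among the 57. At that correlation the fit was close to that without the beadchip, with a median SE ratio of 1.01. Psmd8 stood at 11.07, 11.35 and 11.14 at TCP 6 h, against 7.51, 11.35 and 10.72 at TCP 3 h, so that TCP 3 h replicate 1 alone was low. Within beadchip 1, where a lone TCP 3 h array is assumed to vary like the others, 6 genes were called, Amn and Lpin1 among the 57. All 57 changes had the same sign in the fixed-term fit and within beadchip 1, and 55 were at least 1.5-fold in each. Both fits set TCP 6 h against TCP 3 h replicate 1 alone. As no called gene overlapped between the groups, the shared sign was not a test. The part of the beadchip in the calls was not tested beyond these values. Leaving out a single array lost between 10 and 47 of the 57 calls, the fewest without TCP 3 h replicate 1 and the most without TCP 3 h replicate 2. The calls of Lratd1, Nup205, Plin5, Myo1e, Retreg1, Il6ra and Lpin1 held in all 6 of these fits. On the authors' normalised values the called changes kept their sign, which again was not a test. They shrank to a median share of 0.564 of those given here, and 31 of the 57 calls held. Lratd1, at a change of 0.22 on those values, was not among these.

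Among the CAR-responsive cytochromes P450, Cyp2c55, a drug-inducible Cyp2c enzyme, rose most of all called genes. It stood at 11.65, 11.26 and 11.44 at TCP 6 h, against 9.48, 7.95 and 9.05 at TCP 3 h. Every TCP 6 h liver lay above every TCP 3 h liver, and the spread was wider at TCP 3 h (SD 0.79) than at TCP 6 h (SD 0.19). The change was 2.62, or 6.15-fold (SE 0.48, limma adjusted p = 0.0211), after a mean of 7.21 in the TCP 1 h livers. With the beadchip in the model it was 1.97 and within beadchip 1 it was 1.89. Its call was lost in 5 of the 6 fits that left out an array, all but that without TCP 3 h replicate 1, with changes of 2.18 to 2.95.

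The region around the start of Cyp2c55 is shown because this gene moved most among the P450s. The window of 300 bases spans the start of transcription as RefSeq places it on build GRCm38.p6, at chr19:39006769-39007068 on the plus strand, with capitals for a match to the TATA box letters TATAAA.
Cyp2c55: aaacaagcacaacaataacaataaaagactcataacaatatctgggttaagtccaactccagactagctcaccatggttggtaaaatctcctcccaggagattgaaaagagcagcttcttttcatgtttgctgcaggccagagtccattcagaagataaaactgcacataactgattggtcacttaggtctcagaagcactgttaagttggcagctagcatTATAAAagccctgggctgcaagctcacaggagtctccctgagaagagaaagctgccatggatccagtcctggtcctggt
Searched on both strands, these letters lay in 739 of the 7619 tested genes with such a window (9.7%), in 14 of 24 CAR-responsive P450s (58.3%) and in 2 of 26 genes called higher, Cyp2c55 and Ephx1 (7.69%). A match describes the letters only.

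Cyp2b10, the classic CAR target, was not called between these hours. It stood at 15.32, 15.34 and 15.30 at TCP 6 h and at 14.74, 14.72 and 14.66 at TCP 3 h, after a mean of 12.85 at TCP 1 h. The groups did not overlap and each was tight, but the change of 0.61 (SE 0.20) had a limma adjusted p of 0.185, and whether its brightness limited the signal was not tested. Cyp2b23, of the same family, stood at 13.66, 14.03 and 13.86 at TCP 6 h and 13.43, 12.68 and 12.61 at TCP 3 h (change 0.94, limma adjusted p = 0.189). Cyp2c29, a further CAR-responsive enzyme, had a change of 0.88 (limma adjusted p = 0.191), Cyp2c50 one of 0.38 and Cyp3a11 one of 0.59. Of the 26 listed P450s tested, 1 was called higher and none lower, 21 had a positive change, 7 had an unadjusted p under 0.05 with a higher level and none with a lower level, and the median change was 0.33. It was 0.21 with the beadchip in the model and 0.19 without TCP 3 h replicate 2, on which 15 of the 26 genes were lowest of the 6 arrays.

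Ephx1, the microsomal epoxide hydrolase that acts on the products of P450s, rose. Its levels were 12.60, 13.23 and 12.96 at TCP 6 h, against 11.78, 11.87 and 11.53 at TCP 3 h. All TCP 6 h livers were higher, by a mean change of 1.20 (SE 0.25; 1.15 in the model with the beadchip) at a limma adjusted p of 0.0372, and the call was lost in 5 of 6 fits without an array, all but that without TCP 3 h replicate 1 (1.05 to 1.37). The carboxylesterase gene Ces2a stood at 8.09, 8.75 and 8.46 at TCP 6 h and 7.31, 6.70 and 7.89 at TCP 3 h, a change of 1.13 that was not called (limma adjusted p = 0.117). Nr1i3 itself changed by 0.28 (limma adjusted p = 0.676) and Alas1, the rate-limiting enzyme of heme synthesis, by 0.40 (limma adjusted p = 0.636). Por had no probe with its name. Among receptor partners, Ppargc1b, a coactivator of nuclear receptors and of mitochondrial genes, fell. It stood at 7.49, 7.58 and 7.02 at TCP 6 h and at 8.61, 9.58 and 8.89 at TCP 3 h (change -1.67, SE 0.34, limma adjusted p = 0.0372, -1.25 with the beadchip in the model). It fell by nearly the same amount over the PH step (-1.71, limma adjusted p = 0.0174). Without single arrays its TCP change was -1.88 to -1.39, and its call held only without TCP 3 h replicate 1.

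**Figure D2:**
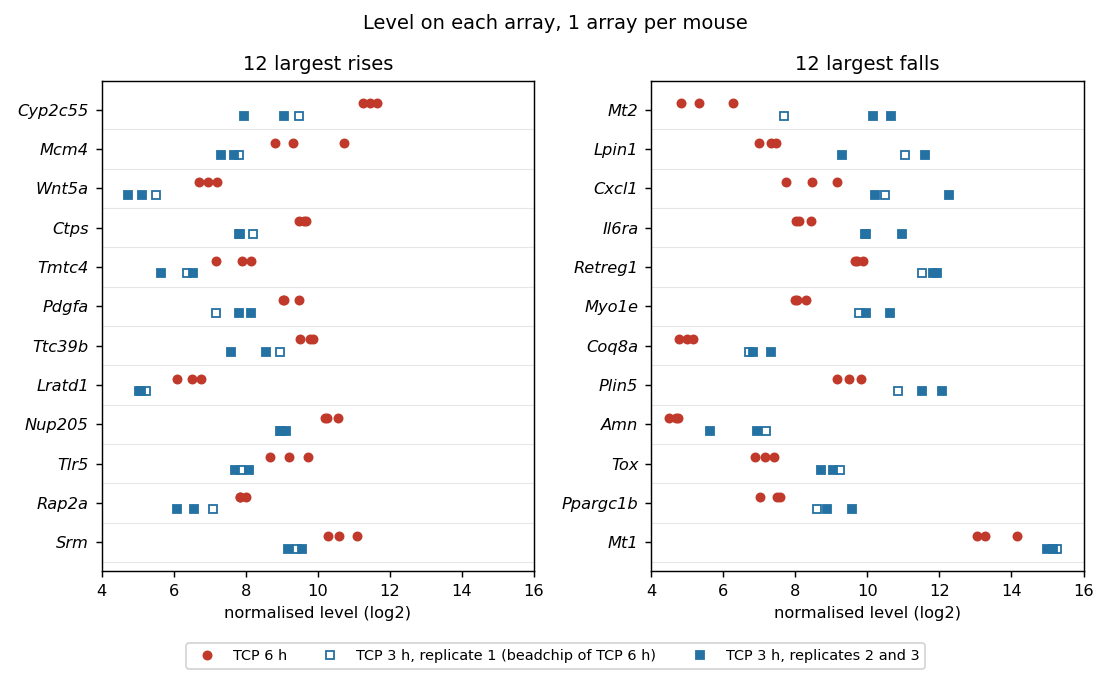
Normalised levels (log2, horizontal axes) of the 12 genes with the largest called rises (left) and the 12 with the largest called falls (right), with TCP 6 h as circles drawn above the squares of TCP 3 h, and an open square for the TCP 3 h array that shared the beadchip of TCP 6 h. In each gene the circles and squares do not overlap, as for Cyp2c55 with TCP 6 h at 11.26 to 11.65 and TCP 3 h at 7.95 to 9.48.

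The largest fall was that of Mt2, and Mt1 fell with it. Both encode metallothioneins, small cysteine-rich proteins that bind zinc and copper, and their genes are known to respond to metals, glucocorticoids and inflammation. Mt2 stood at 6.26, 4.84 and 5.33 at TCP 6 h, where it was detected on 2 of 3 arrays, against 7.70, 10.67 and 10.17 at TCP 3 h. The groups did not overlap, and TCP 3 h replicate 1 was the nearest to TCP 6 h. The change was -4.03, or 16.4-fold (SE 0.78, limma adjusted p = 0.0313), but -2.22 with the beadchip in the model, -2.26 within beadchip 1 and -1.75, without a call, on the authors' normalised values (limma adjusted p = 0.155). The call was lost in 5 of 6 fits without an array, all but that without TCP 3 h replicate 1, with changes of -4.94 to -3.45. Mt1 stood at 14.15, 13.25 and 13.03 at TCP 6 h, against 15.26, 14.97 and 15.14 at TCP 3 h. It was lower in every TCP 6 h liver, with a change of -1.65 (SE 0.27; -1.78 in the model with the beadchip) and a limma adjusted p of 0.0108. Its call was lost without TCP 6 h replicate 2 or 3, at changes within -1.98 to -1.43. Over the PH step Mt1 changed by 0.25 and Mt2 by -0.01, and neither was called. Of the other zinc carriers, Slc30a1, which exports zinc from the cell, had a change of 1.01, Slc30a5 one of 0.91 and Slc39a4, an importer, one of 0.14, and none was called. Over all 12 tested metallothioneins and zinc carriers, 6 had a positive change and the median was 0.03.

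The windows around the starts of Mt1, at chr8:94178839-94179138, and Mt2, at chr8:94172368-94172667, both on the plus strand of GRCm38.p6 as RefSeq places them, are shown because the pair fell together. Capitals mark matches on either strand to the metal response element, spelled TGCACNC or TGCGCNC, which were chosen after the change of these genes was seen.
Mt1: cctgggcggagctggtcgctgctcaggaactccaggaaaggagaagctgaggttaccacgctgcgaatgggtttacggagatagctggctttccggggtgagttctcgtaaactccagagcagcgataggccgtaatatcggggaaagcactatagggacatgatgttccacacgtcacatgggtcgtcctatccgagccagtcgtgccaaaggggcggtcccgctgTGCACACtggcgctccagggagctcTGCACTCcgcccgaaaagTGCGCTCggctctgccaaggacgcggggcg
Mt2: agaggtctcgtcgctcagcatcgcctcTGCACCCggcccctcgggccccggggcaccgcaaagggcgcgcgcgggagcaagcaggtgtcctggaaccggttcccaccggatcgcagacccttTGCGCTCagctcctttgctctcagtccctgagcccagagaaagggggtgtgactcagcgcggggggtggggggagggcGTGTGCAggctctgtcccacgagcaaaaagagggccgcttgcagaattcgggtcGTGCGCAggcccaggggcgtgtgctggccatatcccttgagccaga
The windows held 3 matches in Mt1 and 4 in Mt2, without overlaps. The letters are common: of 7619 tested genes with a window, 3028 held at least 1 match (39.7%). So did 12 of 26 of genes called higher (46.2%) and 6 of 20 of genes called lower (30.0%). A match is a description and not a binding site.

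Metallothioneins also belong to the list of glucocorticoid receptor targets, of which 29 genes were tested. Of these, 2 were called lower, Mt1 and Mt2, and none higher. An unadjusted p under 0.05 was reached by 13 with a lower level and by none with a higher level, against 6.94% of all genes in each direction, and 6 had a positive change. Zbtb16, a zinc finger repressor induced by glucocorticoids, stood at 5.37, 4.94 and 5.52 at TCP 6 h and at 6.64, 9.16 and 7.65 at TCP 3 h (change -2.54, limma adjusted p = 0.0536). Fkbp5, a co-chaperone of the glucocorticoid receptor, stood at 9.01, 9.45 and 8.16 at TCP 6 h and at 9.86, 10.92 and 10.70 at TCP 3 h (change -1.62, limma adjusted p = 0.0616). In both genes the groups did not overlap, without a call. With all 21 arrays in the model Fkbp5 was called (-1.62, limma adjusted p = 0.0426), but not on the authors' normalised values (-1.22, limma adjusted p = 0.0913). Hsd11b1, which regenerates active glucocorticoid, and Errfi1, a brake on the EGF receptor, were the brightest uncalled members and had changes of -0.14 and 0.01. The list's median change was -0.68, and it was -0.39 with the beadchip in the model, -0.37 within beadchip 1 and 0.0009 over the PH step. On TCP 3 h replicate 2, 19 of the 29 genes had the highest value of the 6 arrays, against 1996 of all 9376 genes. The median was -0.58 without that array and -1.03 without TCP 3 h replicate 1. Neutrophil markers, of which 4 of 14 were tested, also had a median change of -0.68, with 3 of the 4 highest on TCP 3 h replicate 2. The median was -0.23 with the beadchip in the model and -0.73 over the PH step. None was called and 2, S100a9 and Csf3r, had an unadjusted p under 0.05 with a lower level. Both were detected on all 3 TCP 3 h arrays and on no TCP 6 h array. They thus passed the filter only through the group where they were higher, so that their lower level is no test. The median of the 4 rests partly on them. S100a8 and Lcn2 were detected on all 6 arrays and changed by -0.03 and -0.68. The summed signal of the 4, relative to its mean over the 6 arrays, was 0.623 to 0.96 at TCP 6 h and 0.706 to 1.91 at TCP 3 h. The part of these cells in the values of that array was not tested.

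**Figure D3:**
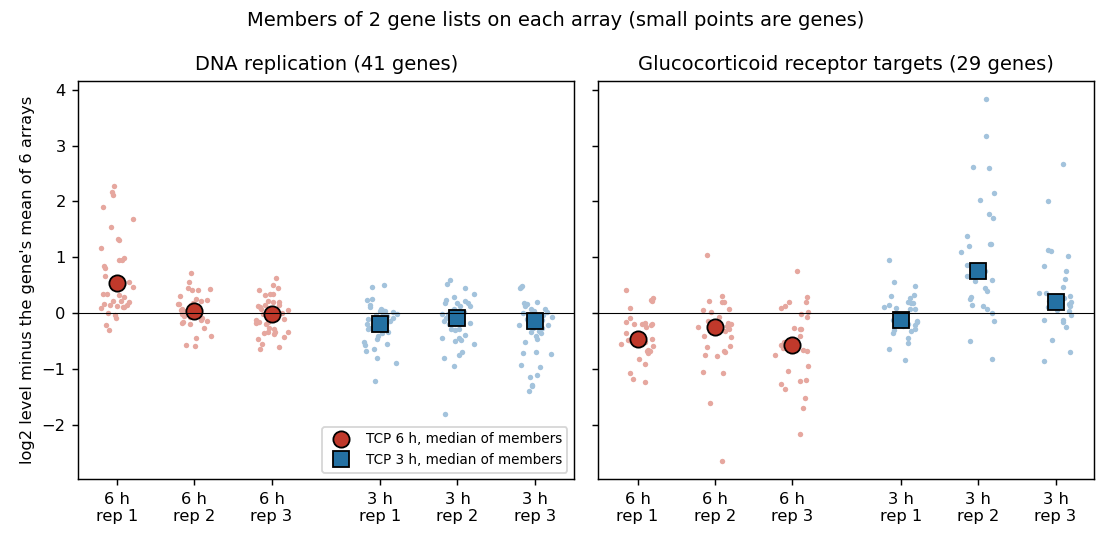
Level of each member of 2 gene lists on each of the 6 arrays, as log2 minus the gene's mean over the 6 arrays (vertical axis), with small points for genes and large symbols for the median of the members, TCP 6 h left of TCP 3 h. DNA replication genes were highest on TCP 6 h replicate 1 for 27 of 41, and glucocorticoid receptor targets were highest on TCP 3 h replicate 2 for 19 of 29.

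Lpin1 encodes a phosphatidate phosphatase of triglyceride synthesis that also acts as a coactivator of transcription in fasted liver. It stood at 7.48, 7.34 and 6.99 at TCP 6 h, against 11.05, 11.60 and 9.29 at TCP 3 h. All TCP 6 h livers were lower, by a change of -3.37, or 10.4-fold (SE 0.47, limma adjusted p = 0.00392). This fall was -3.78 with the beadchip in the model and -3.67 within beadchip 1, where it kept its call (limma adjusted p = 0.0287), and it held in all 6 fits without an array (-4.05 to -2.90). Plin5, which coats lipid droplets and tethers them to mitochondria, stood at 9.16, 9.81 and 9.49 at TCP 6 h, against 10.86, 12.08 and 11.51 at TCP 3 h. It fell by 1.99 on the log2 scale (SE 0.31, limma adjusted p = 0.00806) and kept its call in all 6 of those fits, with -1.37 in the model with the beadchip. Plin3, a droplet protein found in many tissues, stood at 7.48, 7.27 and 7.30 at TCP 6 h and 8.02, 9.02 and 8.28 at TCP 3 h. It fell by 1.09 on the log2 scale (SE 0.23, limma adjusted p = 0.0404, -0.67 with the beadchip in the model), and its call held only without TCP 3 h replicate 1 (-1.30 to -0.80). Of 26 genes of triglyceride synthesis and lipid droplets, these 3 were called lower and none was called higher. The members differed among themselves. Plin4 had a change of -2.91 without a call (limma adjusted p = 0.0616), Plin2 one of 0.95 and Dgat2, the brightest uncalled member, one of -0.37. Cidec, a droplet fusion protein, was not detected on any TCP 3 h array, and its change was not called either (limma adjusted p = 0.422). The median over the list was -0.12, against 0.0055 over all genes.

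Among insulin signalling and FOXO targets, none of 28 genes was called, 8 had an unadjusted p under 0.05 with a lower level and 1 with a higher level, and the median change was -0.41 (-0.29 with the beadchip in the model). Without TCP 3 h replicate 3 the median was -0.19. Depp1, a FOXO target induced by fasting, had the widest difference of the list. It stood at 5.98, 5.68 and 5.73 at TCP 6 h and at 8.70, 8.98 and 9.03 at TCP 3 h. The groups lay far apart, at a change of -3.11, but the pooled SE was 0.91 and the limma adjusted p 0.137, and the gene spread widely at TCP 1 h (8.79, 11.27 and 11.28). Within beadchip 1 its change of -2.90 was called (limma adjusted p = 0.0305). Igfbp4 and Igf1, the brightest members, had changes of 0.41 and -0.29. Of genes of gluconeogenesis, Pck1 stood at 8.68, 8.97 and 8.47 at TCP 6 h and 9.33, 10.32 and 9.58 at TCP 3 h (change -1.03, limma adjusted p = 0.18), and G6pc, high on TCP 3 h replicate 2 alone, had a change of -0.60.

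The subunits of the respiratory chain and ATP synthase had small changes of mostly 1 sign. Of 66 tested, 25 had an unadjusted p under 0.05 with a lower level and none with a higher level, 7 had a positive change, and Ndufa5 of complex I was called. Ndufa5 stood at 11.51, 11.04 and 11.42 at TCP 6 h, against 11.87, 12.33 and 12.33 at TCP 3 h. It fell by 0.85 on the log2 scale (SE 0.17, limma adjusted p = 0.0313, -0.55 with the beadchip in the model), and its call held only without TCP 3 h replicate 1 (-1.01 to -0.71). Cox7b, a small subunit of cytochrome oxidase, had a change of -0.99 (limma adjusted p = 0.0616), while the brighter Atp5b and Atp5g3 of ATP synthase had changes of -0.18 and -0.10. The list's median of -0.36 was -0.12 with the beadchip in the model and -0.11 within beadchip 1. On TCP 6 h replicate 2, 47 of the 66 were lowest of the 6 arrays (1614 of all genes), and on TCP 3 h replicate 2, 33 were highest. The median without TCP 6 h replicate 2 was -0.24. Genes of the urea cycle and amino acid catabolism gave a median of -0.21 over 56 genes with no call and with an unadjusted p under 0.05 for 9 lower and 1 higher. Gnmt, a glycine methyltransferase, changed by -0.33 and Mat1a, which makes S-adenosylmethionine, by -0.08.

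Il6ra, the hepatocyte receptor for interleukin-6, fell. It stood at 8.43, 8.03 and 8.10 at TCP 6 h, against 9.93, 10.96 and 9.95 at TCP 3 h (change -2.10, SE 0.30, limma adjusted p = 0.00517). All TCP 6 h livers were lower and the TCP 1 h mean of 9.95 was near that of TCP 3 h. The call held in all 6 fits without an array, and the change was -1.75 with the beadchip in the model. Cxcl1, a chemokine that attracts neutrophils, stood at 9.16, 7.75 and 8.46 at TCP 6 h, against 10.49, 10.23 and 12.28 at TCP 3 h. It fell by 2.54 on the log2 scale (SE 0.55, limma adjusted p = 0.0444), with TCP 3 h replicate 3 the highest, and its call held only without TCP 3 h replicate 1 (-2.92 to -1.90). It was the only called gene among 31 of NF-kB factors, cytokines and chemokines, and Ccl9 and Cxcl12 changed by 0.30 and 0.50. Of the signalling genes downstream of cytokines, Socs3 had a change of -0.38 and Cebpb, a transcription factor of the priming phase, of -0.06.

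Further falls were seen in genes of other roles. Retreg1, a receptor for the autophagy of the endoplasmic reticulum, stood at 9.89, 9.70 and 9.65 at TCP 6 h, against 11.52, 11.93 and 11.83 at TCP 3 h. Both groups were tight, and the change of -2.01 (SE 0.27) had a limma adjusted p of 0.00328, the smallest of the comparison together with those of Nup205 and Myo1e. Myo1e, a class I myosin, averaged 8.12 ± 0.16 at TCP 6 h, against 10.13 ± 0.45 at TCP 3 h (SD, n = 3 each), with the same change of -2.01. With the beadchip in the model these changes were -1.77 for Retreg1 and -1.66 for Myo1e, and both calls held in all 6 fits without an array. Tox, an HMG-box nuclear protein, stood at 7.16, 7.42 and 6.89 at TCP 6 h, against 9.25, 8.71 and 9.05 at TCP 3 h (change -1.85, limma adjusted p = 0.0211, held only without TCP 3 h replicate 1, -2.00 to -1.72). Its TCP 1 h mean was 7.54, so that TCP 3 h stood above both other hours. Coq8a, of coenzyme Q synthesis, was detected on 1 of 3 arrays at TCP 6 h, at 4.76, 5.16 and 4.99, against 6.72, 6.84 and 7.34 at TCP 3 h (change -1.99, limma adjusted p = 0.0372, held only without TCP 3 h replicate 1). Amn, which serves the uptake of vitamin B12, was not detected on any TCP 6 h array and fell at least 2.84-fold below its TCP 3 h levels of 7.19, 5.65 and 6.93 (limma adjusted p = 0.0313, held only without TCP 3 h replicate 2).

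Of the DNA replication genes 1 was called, and TCP 6 h replicate 1 was the highest array for most. Mcm4, a subunit of the replicative MCM helicase, stood at 10.71, 9.32 and 8.82 at TCP 6 h, against 7.80, 7.66 and 7.32 at TCP 3 h. The rise was 2.02, or 4.07-fold (SE 0.41; 1.82 in the model with the beadchip), at a limma adjusted p of 0.0372, and TCP 6 h replicate 1 was the highest of the group. Its call was lost without TCP 6 h replicate 1 or 2 or TCP 3 h replicate 2 or 3, at changes within 1.48 to 2.43. Its partners Mcm2, Mcm3, Mcm5 and Mcm6 were not called, at changes of 1.56, 0.86, 1.69 and 1.45. Mcm5 stood at 9.23, 7.60 and 6.86 at TCP 6 h, against 5.83, 6.88 and 5.91 at TCP 3 h, and Mcm6 at 8.90, 7.63 and 7.26, against 6.31, 6.66 and 6.48. In both, TCP 6 h replicate 1 stood highest. Of 41 genes of DNA replication, 1 was called higher and none lower, 13 had an unadjusted p under 0.05 with a higher level and 1 with a lower level, and the median change was 0.23. Rpa1 and Mcm10, the brightest uncalled members, had changes of -0.07 and 0.20. On TCP 6 h replicate 1, 27 of the 41 were highest of the 6 arrays (1272 of all genes), and without that array the median was 0.0968. None of 16 genes of mitosis was called. Of these, 6 had an unadjusted p under 0.05 with a higher level and 1 with a lower level, the median change was 0.59, and 11 of the 16 were highest on the same array.

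That array also stood highest for markers of Kupffer cells and macrophages. Of 13 such markers tested, 12 were highest on TCP 6 h replicate 1, and their median change was 0.44, or -0.02 without that array. Of the 13, 10 had a positive change, while Cd163 had one of -0.79 and Cd14 one of -0.28. None of the markers was called and 1, Lyz2, had an unadjusted p under 0.05. Clec4f and Vsig4, both defining markers of Kupffer cells, had changes of 0.50 each, with Clec4f at 9.95, 8.83 and 9.50 at TCP 6 h and 8.71, 9.49 and 8.57 at TCP 3 h. The part of this cell type in the replication genes was not tested. In RNA of whole liver, a change in the number of cells of a type and a change of RNA per cell cannot be told apart. Hepatocyte markers had a median of -0.12 over 16 genes with none called and 3 at an unadjusted p under 0.05, all lower, and those of red blood cells 0.55 over 6 genes with none at either threshold.

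The windows of 2 uncalled subunits of this helicase are shown (RefSeq, GRCm38.p6). That of Mcm5 is at chr8:75109259-75109558 on the plus strand and that of Mcm6 at chr1:128359656-128359955 on the minus strand. The called subunit Mcm4 had no window in the reference used. Capitals mark matches on either strand to 3 forms of the E2F site, TTTCCCGC, TTTGGCGC and TTTCGCGC, of which the last 2 were chosen with the results known.
Mcm5: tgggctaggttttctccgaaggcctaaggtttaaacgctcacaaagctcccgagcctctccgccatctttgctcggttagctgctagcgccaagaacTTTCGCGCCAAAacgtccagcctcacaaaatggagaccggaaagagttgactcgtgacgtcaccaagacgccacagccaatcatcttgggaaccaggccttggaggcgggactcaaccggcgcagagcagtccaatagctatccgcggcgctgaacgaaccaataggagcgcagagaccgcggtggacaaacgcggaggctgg
Mcm6: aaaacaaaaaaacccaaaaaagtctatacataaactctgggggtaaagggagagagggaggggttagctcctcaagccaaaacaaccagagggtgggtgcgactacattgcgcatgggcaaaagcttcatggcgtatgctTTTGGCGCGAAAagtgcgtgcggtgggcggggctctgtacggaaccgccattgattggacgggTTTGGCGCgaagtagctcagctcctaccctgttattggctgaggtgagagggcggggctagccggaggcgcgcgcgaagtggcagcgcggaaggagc
Mcm5 held 2 matches that overlap, on opposite strands, and Mcm6 3 matches, 2 of them overlapping. Such a match lay in 302 of 7619 tested genes with a window (3.96%) and in 11 of 35 of DNA replication genes (31.4%). It lay in 2 of 26 of genes called higher (7.69%, Pdgfa and Tmpo) and in none of 20 called lower. The letters in a window say nothing of the factor that may bind them.

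Ccnd1, the G1 cyclin D1, was not called, although it was on the authors' normalised values (1.49, limma adjusted p = 0.0491) and with all 21 arrays in the model (1.45, limma adjusted p = 0.0273). It stood at 13.87, 13.58 and 13.46 at TCP 6 h and at 12.72, 11.96 and 11.87 at TCP 3 h, without overlap, and the change was 1.45 (SE 0.32, limma adjusted p = 0.0536, 0.91 with the beadchip in the model). Cdkn1a, which encodes the cyclin-dependent kinase inhibitor p21, stood at 6.44, 6.59 and 4.70 at TCP 6 h and at 7.87, 11.07 and 8.60 at TCP 3 h. This was a change of -3.27 with an SE of 0.79 and no call (limma adjusted p = 0.0616). Cdkn1a was called with all 21 arrays in the model (-3.29, limma adjusted p = 0.0358) but not on the authors' normalised values (-1.44, limma adjusted p = 0.258). Gadd45a and Gadd45b, stress sensors of the cell cycle, changed by 0.02 and 0.33, and Myc by 0.44. Egr1, an immediate early gene, had a change of -2.17 (limma adjusted p = 0.142) and Fosl2, of the AP-1 family, one of 0.87. No member of the core circadian clock was called, and 1 of 13 had an unadjusted p under 0.05. Per2 changed by 1.09, Per1 by 0.07, Nr1d1 by -0.96 and Arntl (Bmal1) by -0.89. With the beadchip in the model these changes were 0.25, 0.67, -1.04 and -0.36. On TCP 3 h replicate 2, 7 of the 13 clock genes were highest of the 6 arrays (1996 of all 9376 genes). Dbp, a clock output gene, stood at 13.12, 12.87 and 12.80 at TCP 6 h and 12.98, 10.60 and 12.47 at TCP 3 h, with TCP 3 h replicate 2 the lowest and a change of 0.91 (limma adjusted p = 0.652) that was -0.05 with the beadchip in the model.

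Ctps and Srm, enzymes of nucleotide and polyamine synthesis, rose. Ctps, which makes CTP from UTP, stood at 9.66, 9.49 and 9.63 at TCP 6 h, against 8.21, 7.81 and 7.84 at TCP 3 h. Both groups were tight, the change was 1.64 (SE 0.27, limma adjusted p = 0.0108, 1.39 with the beadchip in the model), and the call was lost without TCP 6 h replicate 1 or 3 or TCP 3 h replicate 2 (1.57 to 1.77). It rose by a like amount over the PH step (1.53, limma adjusted p = 0.0112). Srm, the spermidine synthase, stood at 10.28, 10.60 and 11.10 at TCP 6 h, against 9.43, 9.17 and 9.56 at TCP 3 h. The rise was 1.27 (SE 0.25; 1.23 in the model with the beadchip) at a limma adjusted p of 0.0313, with its call lost without TCP 6 h replicate 2 or 3 or TCP 3 h replicate 2 or 3 (1.05 to 1.47). Srm, although a polyamine enzyme, was also placed in the ribosome biogenesis list of 68 tested genes. No other member of that list was called. Of the list, 60 had a positive change, 18 had an unadjusted p under 0.05 with a higher level and none with a lower level, and the median was 0.30 (0.24 with the beadchip in the model, 0.11 on the authors' normalised values, 0.45 over the PH step). Polr1b, a core subunit of RNA polymerase I, changed by 1.23 (limma adjusted p = 0.058), Nop56 by 1.03, Npm1, a nucleolar chaperone, by 0.49 and Imp3 by 0.45. The genes were highest on TCP 6 h replicate 3 for 43 of 68, and without that array the median was 0.23.

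Heat shock proteins had positive changes in most members, without a call. Of 31 tested, 28 had a positive change, 12 had an unadjusted p under 0.05 with a higher level and none with a lower level, and the median was 0.28 (0.18 with the beadchip in the model, 0.13 on the authors' values). Chordc1, a co-chaperone of HSP90, stood at 11.09, 10.81 and 11.10 at TCP 6 h and 10.31, 9.68 and 9.74 at TCP 3 h (change 1.10, limma adjusted p = 0.0554). Hsph1 changed by 1.22, Hspa8, the constitutive HSP70, by 0.56 and the mitochondrial Hspa9 by 0.12.

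**Figure D4:**
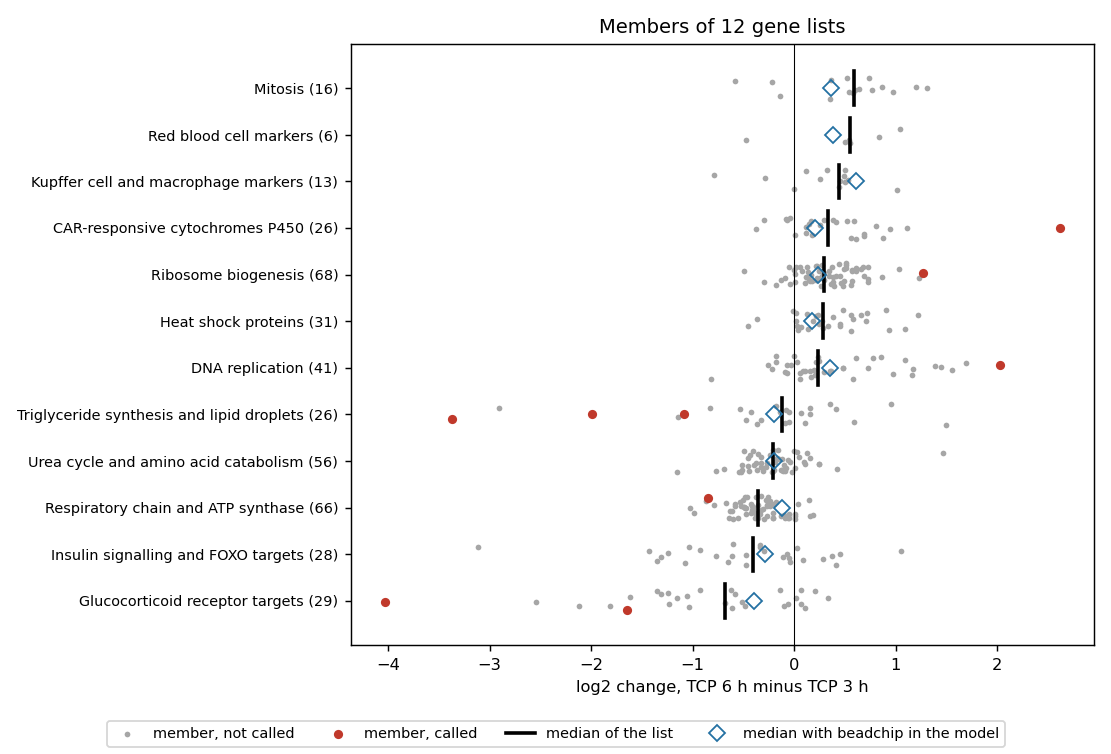
Log2 change, TCP 6 h minus TCP 3 h (horizontal axis), of each member of 12 gene lists, with the number of tested members beside the name, called members in red, the median of the list as a bar and its median with the beadchip in the model as a diamond. Glucocorticoid receptor targets have the lowest median (-0.68, or -0.39 with the beadchip) and mitosis the highest (0.59, or 0.36 with the beadchip).

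Signalling genes were among the other rises. Wnt5a, a ligand of non-canonical Wnt signalling, was dim at 6.71, 7.20 and 6.96 at TCP 6 h, against 5.52, 4.73 and 5.13 at TCP 3 h, where it was detected on 2 of 3 arrays (change 1.83, SE 0.32, limma adjusted p = 0.0158, 1.43 with the beadchip in the model). Pdgfa, the A chain of platelet-derived growth factor, stood at 9.08, 9.03 and 9.48 at TCP 6 h, against 7.17, 8.15 and 7.82 at TCP 3 h. The rise was 1.48 (SE 0.29; 2.02 in the model with the beadchip) at a limma adjusted p of 0.0313, its call was lost in all 6 fits without an array (1.21 to 1.70), and its TCP 1 h mean was 8.46. Pik3cb, a catalytic subunit of phosphoinositide 3-kinase, stood at 11.06, 10.75 and 11.22 at TCP 6 h, against 9.67, 9.73 and 10.17 at TCP 3 h. It had been lower still in all TCP 1 h livers (8.91, 8.81 and 8.82). Its change was 1.16 (SE 0.19, limma adjusted p = 0.0108, lost without TCP 6 h replicate 3 or TCP 3 h replicate 2, 1.05 to 1.31). Tlr5, the receptor for bacterial flagellin, stood at 9.21, 9.71 and 8.69 at TCP 6 h, against 7.86, 7.70 and 8.10 at TCP 3 h (change 1.32, limma adjusted p = 0.0158, lost without TCP 6 h replicate 1 or 2 or TCP 3 h replicate 2, 1.06 to 1.58). Rap2a, a small GTPase, stood at 8.02, 7.83 and 7.85, against 7.08, 6.57 and 6.10 (change 1.32, limma adjusted p = 0.0179, 0.82 with the beadchip in the model). Another probe of Rap2a went the other way. The call of Rap2a held only without TCP 3 h replicate 1 (1.08 to 1.56), and that of Wnt5a was lost without TCP 6 h replicate 2 or 3 or TCP 3 h replicate 2 or 3 (1.63 to 2.02).

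Nup205, a scaffold protein of the nuclear pore, had the smallest adjusted p of the rises. It stood at 10.26, 10.56 and 10.21 at TCP 6 h, against 8.96, 9.13 and 8.99 at TCP 3 h, and the change of 1.32 (SE 0.17, limma adjusted p = 0.00328) was 1.39 with the beadchip in the model. Tmtc4, a mannosyltransferase of the endoplasmic reticulum, rose by 1.56, Ttc39b, a tetratricopeptide repeat protein, by 1.36 and Lratd1 by 1.32. The call of Lratd1 held in all 6 fits without an array. It was lost on the authors' normalised values (0.22, below 1.5-fold) and with the 6 arrays alone (1.37, limma adjusted p = 0.0558). The calls of Tmtc4 (1.30 to 1.85) and Ttc39b (0.97 to 1.65) held only without TCP 3 h replicate 1. Slc25a37, the mitochondrial iron importer mitoferrin, stood at 10.03, 9.99 and 9.82 at TCP 6 h, against 8.78, 8.43 and 9.14 at TCP 3 h (change 1.16, limma adjusted p = 0.041), and its call was lost in all 6 fits without an array (0.99 to 1.34). Of the 25 other detected probes of the called genes, 22 had the sign of the brightest probe and 20 of these an unadjusted p under 0.05. The 3 opposite probes were those of Chn2, Rap2a and Slc2a9, 1 each.

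Whether these changes differ from those between the same hours after PH was tested as the TCP step minus the PH step in the same model, with no array shared. Over the PH step 337 genes were called (3.59%; 150 higher, 1.6%, and 187 lower, 1.99%), and the difference was called for 19 genes (0.203%), 11 of them higher after TCP (0.117%) and 8 lower (0.0853%). None kept a called difference with the beadchip in the model, and 17 differences were called with it as a random block. TCP and PH arrays of these hours shared no beadchip, so that beadchip and treatment cannot be told apart. Within each treatment the hour also largely coincided with the beadchip. All PH 6 h arrays shared a beadchip with a single PH 3 h array, and the other PH 3 h arrays lay on another. The part of the beadchip in the PH calls and in the called differences was not tested beyond these fits. Of the 57 genes called over the TCP step, 27 had the same sign over the PH step and 12 a called difference. Across all genes the changes over both steps correlated at r = 0.231, and genes are not independent replicates.

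Cyp2c55 was at 6.60, 6.69 and 5.22 at PH 6 h, against 6.49, 7.42 and 7.02 at PH 3 h, and the difference between its steps was 3.43 (limma adjusted p = 0.0485). Lpin1 stood high after PH at both hours, with a mean of 10.71 at PH 6 h, against 10.61 at PH 3 h, a PH step of 0.11 and a difference of -3.48 (limma adjusted p = 0.0399). Il6ra and Retreg1 likewise had PH steps of 0.31 and 0.28, at differences of -2.41 and -2.29. Tlr5 went both ways, with 6.68, 6.26 and 6.52 at PH 6 h, against 8.11, 8.08 and 7.99 at PH 3 h, a change of -1.57 over the PH step (limma adjusted p = 0.00675) and a difference of 2.89 (limma adjusted p = 0.000949). Pik3cb had a PH step of -0.64 and a difference of 1.80 (limma adjusted p = 0.0113).

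**Figure D5:**
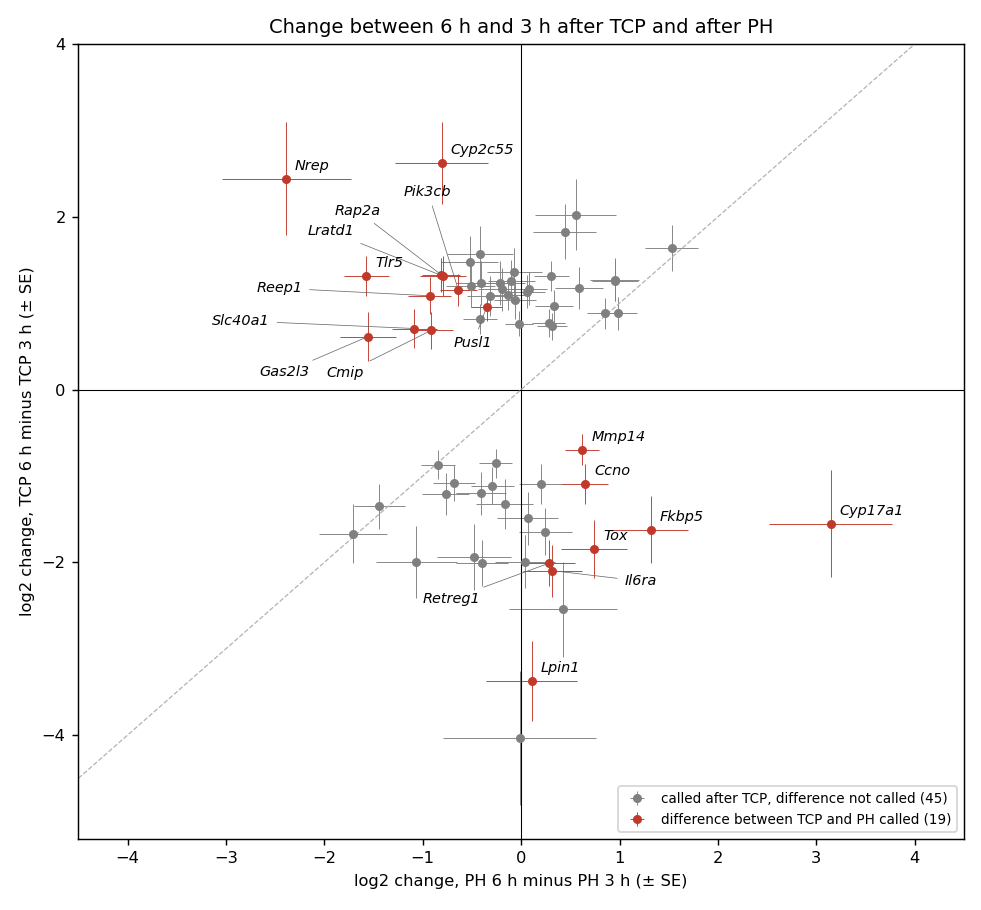
Log2 change over the TCP step (TCP 6 h minus TCP 3 h, vertical axis) against that over the PH step (PH 6 h minus PH 3 h, horizontal axis), with SE bars, for the 57 genes called over the TCP step and the 7 others with a called difference; red marks the 19 called differences and the dashed line equal changes. Cyp2c55 and Lpin1 lie far from the line at TCP changes of 2.62 and -3.37.

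Cyp17a1, the steroid 17-hydroxylase, had a TCP step of -1.55 without a call, at 8.03, 7.75 and 9.26 at TCP 6 h and 10.43, 8.83 and 10.43 at TCP 3 h. Over the PH step it rose by 3.15 (limma adjusted p = 0.0173), and the difference was -4.70 (limma adjusted p = 0.0397). Fkbp5 had steps of -1.62 after TCP and 1.32 after PH, neither of them called, and a difference of -2.94 (limma adjusted p = 0.0397). Nrep had a TCP step of 2.44 without a call (11.65, 11.80 and 11.67 at TCP 6 h and 10.36, 8.42 and 9.02 at TCP 3 h), a PH step of -2.39 and the largest positive difference, 4.83 (limma adjusted p = 0.0411). Slc40a1, the iron exporter ferroportin, stood at 13.31, 13.71 and 13.50 at TCP 6 h and 12.90, 12.54 and 12.97 at TCP 3 h, a TCP step of 0.71 without a call, fell by 1.09 on the log2 scale over the PH step and had a difference of 1.79 (limma adjusted p = 0.0397).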

How the data were processed

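Liver RNA of mice 6 h and 3 h after TCP was measured on Illumina beadchips, 1 array per mouse, 3 mice per group. The authors deposited non-normalised signal intensities with a detection p-value per probe for 45281 probes, and a table of quantile-normalised log2 values, used here as an alternative. The array labels name MouseRef-8 beadchips and the methods WG-6, whose probe number the files match. The number of arrays limits the precision. Detected probes (p under 0.05) numbered 16587 to 17386 on the TCP 6 h arrays and 16210 to 16941 on the TCP 3 h arrays.

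Intensities were background corrected (neqc, offset 16, negative controls inferred from the detection p-values), quantile normalised and log2 transformed in limma 3.58.1 (R 4.3.3). Probes detected on at least 3 of the 6 arrays with a single symbol were kept (14258), and the brightest stood for each gene. Of 45281 probes, 34885 had 1 symbol, 18 several and 10378 none. One model (lmFit, eBayes) with 6 treated groups on 18 arrays gave the TCP step, the PH step and their difference, without the controls. An exact permutation test of 3 against 3 cannot go below p = 0.1 and was not used.

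Genes were named by a rule (the 12 largest called changes each way, members of gene lists, called differences from the PH step, and a fixed set), and Psmd8, Ces2a, Plin2, Plin4, Cidec and other uncalled genes outside it were picked after their values were seen. The members and lists were chosen with earlier results of these data known. A gene not detected in a group is given as a bound against the dimmest detected signal. Replicate numbers did not pair the arrays (correlations of deviations -0.11, -0.0909 and 0.0406). In data simulated for this comparison over 9376 genes, 200 of them changed, 8.96% of genes changed 1.5-fold, 40.3% changed 2-fold and 87.9% changed 4-fold were called, with 6 unchanged genes called. The simulated noise was independent between genes and arrays, without a beadchip shift or a deviating array. These shares therefore do not cover such features of the data. Alternatives covered background, scaling, the authors' values, filters, probe choice, arrays in the model, weights, beadchip (fixed term, random block and within beadchip 1), replicate block and single arrays left out.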

Additional observations from a re-analysis of the deposited data

Results flagged for a closer look

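Of all genes tested, 19 had a change over the TCP step (TCP 6 h minus TCP 3 h) that differed from that over the PH step (PH 6 h minus PH 3 h) by limma's test of the difference itself. The differences, TCP step minus PH step on the log2 scale, were positive for Nrep (4.83), Cyp2c55 (3.43), Tlr5 (2.89), Gas2l3 (2.17), Lratd1 (2.14), Rap2a (2.11), Reep1 (2.02), Pik3cb (1.80), Slc40a1 (1.79), Cmip (1.60) and Pusl1 (1.31). They were negative for Cyp17a1 (-4.70), Lpin1 (-3.48), Fkbp5 (-2.94), Tox (-2.59), Il6ra (-2.41), Retreg1 (-2.29), Ccno (-1.75) and Mmp14 (-1.32). Gas2l3, which links actin and microtubules, had a TCP step of 0.61 without a call and fell by 1.56 on the log2 scale over the PH step. Mmp14, a membrane-bound metalloproteinase, stood at 9.11, 9.33 and 9.18 at TCP 6 h and 10.01, 9.76 and 9.94 at TCP 3 h, with steps of -0.69 after TCP and 0.62 after PH, neither called. With all 21 arrays in the model its TCP step was called (-0.70, limma adjusted p = 0.0484), but not on the authors' normalised values (-0.52, limma adjusted p = 0.0705). None of the 19 was called with the beadchip as a fixed term in the model, and 17 differences were called with it as a random block.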

How the results depend on the processing

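On the authors' values all 57 called changes kept their sign and 31 kept their call. Those values come from the same arrays, so that without overlap between the groups the kept sign is not a test. The sign also held with the beadchip in the model and within beadchip 1. Both fits set TCP 6 h against TCP 3 h replicate 1 alone. As no called gene overlapped, that sign was given in advance and is not a test either. The count of 57 called genes (34 higher, 23 lower) was 36 without the filter on detection (13 lower), 16 with the 6 arrays alone (6 higher, 10 lower), 118 with all 21 arrays (63 higher, 55 lower), 150 with array weights (69 higher, 81 lower), 1 with the beadchip as a fixed block (1 higher, 0 lower), 55 with it as a random block (33 higher, 22 lower) and 6 within beadchip 1 (3 higher, 3 lower). With the 9 TCP arrays 41 were lower. Median scaling gave 21 higher and 21 lower, an even split against 34 and 23, and moved the median of all genes to -0.0479. Without single arrays, 11 to 121 genes were called, 4 to 49 higher and 5 to 72 lower, with 121 without TCP 3 h replicate 1 and 11 without TCP 6 h replicate 2 or 3 or TCP 3 h replicate 2. The 19 called differences from the PH step were 40 without background correction, 30 with an offset of 50, 35 on the authors' values, 8 without the detection filter, 47 with a median signal above 300, 56 with all 21 arrays, 0 with the fixed beadchip block, 17 with the random one and 5 to 19 without single arrays. Array numbers do not pair the mice. With the replicate block on the 6 arrays, 8 genes were called (1 higher, 7 lower), 6 of them among the 57. The causes of these shifts were not tested. On the authors' values Mt2 (-1.75), Mcm4 (1.22), Cxcl1 (-1.94), Plin3 (-0.51), Wnt5a (0.36), Tmtc4 (0.48), Rap2a (0.44), Lratd1 (0.22), Tmpo (0.23), Reep1 (0.16), Ccno (-0.16), Amn (-0.35) and Coq8a (-0.38) were not called, while Ccnd1 and Nrep (2.05) were. Some uncalled genes changed sign with the beadchip as a fixed block: Alas1 (-0.03), Cebpb (0.26), Dbp (-0.05), G6pc (0.06), Gadd45a (-0.37), Hspa9 (-0.01), Mcm10 (-0.41), Rpa1 (0.11) and Slc39a4 (-0.06). Per1 was -0.05 on the authors' values and as low as -0.34 without a single array. Signals near background limit the values of Mt2, Coq8a, Amn and Wnt5a, and not of these alone. Of the called genes, 3 were detected on no TCP 3 h array and 2, Amn among them, on no TCP 6 h array. Such genes passed the filter only through the group where they were higher.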

Other observations

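Of 2391 detected probes without a gene symbol, tested in a model of their own at the same thresholds, 10 were called between TCP 6 h and TCP 3 h, 3 higher and 7 lower, and 266 had an unadjusted p under 0.05. Dio1, the deiodinase that activates thyroid hormone, had the largest positive change of all genes without a call. It stood at 11.16, 11.76 and 11.45 at TCP 6 h and at 10.54, 6.28 and 7.70 at TCP 3 h, a change of 3.28 with an SE of 1.00 (limma adjusted p = 0.153), and it was picked for this size. TCP 3 h replicate 1 correlated with the TCP 6 h arrays at a mean of 0.9745 over genes and with the other TCP 3 h arrays at 0.9708.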
